A study of Homo sapiens with 4 samples.

Results

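The synaptic vesicle and release machinery was examined as 42 genes, chosen by symbol from the deposited count table of 60612 gene IDs. They encode proteins of the vesicle membrane, the calcium sensors, the SNARE (vesicle fusion) proteins and their regulators, the docking and priming factors, the endocytic proteins that retrieve vesicles, and the adhesion proteins that join the sides of a synapse. 39 of the 42 had enough counts to be tested, among 17537 tested genes in all. RNAseq covered 4 libraries of IMR-32 cells, a human neuroblastoma line that is long established and carries MYCN amplification. 2 libraries were from cells with a control hairpin (shControl) and 2 from cells with a hairpin against NeuroD1 (shNeuroD1), a basic helix-loop-helix transcription factor of neural development. Cells were stably transduced, the hairpins were inducible, and per the labels all cells received doxycycline (1 µg/mL for 48 h). The genotype labels call the shControl cells WT and the others NeuroD1 knockdown. Which NeuroD1 hairpin was used, and if replicate libraries were separate cultures, the labels leave unsaid. The study used hairpins whose names end in the same numbers as the shNeuroD1 titles, so the 2 shNeuroD1 libraries may be replicates of 1 hairpin or carry different ones. The numbers were read as replicate numbers, and p-values measure only the spread between these libraries, which may be technical. All 4 come from a single cell line.

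Neurons and endocrine cells store transmitter in vesicles, bring these to the plasma membrane through Rab3 GTPases and priming factors, and fuse them when a SNARE complex zippers on a calcium signal read by synaptotagmins. The membrane is then taken back by clathrin and dynamin and refilled. Neuroblastoma arises from the sympathetic lineage of the neural crest, whose normal cells release catecholamines with this machinery. The comparison asked which of its components differed in RNA level between the knockdown and the control libraries.

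Libraries held between 14665210 and 16482463 counts. NEUROD1 itself was counted 6174 and 6582 times in the shControl libraries and 969 and 886 times in the shNeuroD1 libraries, a log2 fold change of -2.77 (SE 0.05, adjusted p = 8.6e-29 by edgeR), in the direction of the labels. Mitochondrial genes took 4.37% and 4.59% of shControl counts and 5.39% and 5.51% of shNeuroD1 counts. The 8 adrenergic neuroblastoma markers were all detected, with a sum of 1976 to 2001 CPM (counts scaled by TMM to library size) in shControl and 1586 to 1615 CPM in shNeuroD1. The 8 mesenchymal markers, of which PRRX1 and COL1A2 were under 0.2 CPM in every library, summed to 249 to 253 CPM and 177 to 180 CPM. The 5 glial markers summed to 5.22 to 5.23 CPM and 8.48 to 9.65 CPM, with GFAP under 0.2 CPM in every library. The 4 blood markers stayed at or under 0.263 CPM in sum. The 4 epithelial markers summed to 0.0678 to 0.63 CPM and 1.44 to 1.84 CPM, with EPCAM at 0 and 1 counts against 28 and 21. The part of these marker changes in the results below was not tested. In bulk RNA, fewer cells that express a gene and less RNA per cell cannot be told apart.

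More members rose than fell in shNeuroD1. By edgeR's quasi-likelihood test, with Benjamini-Hochberg adjustment over all 17537 genes and an adjusted p threshold of 0.05, 23 of the 39 tested members rose (59%, against a background of 26.8% of all tested genes) and 10 fell (25.6%, background 28.2%). A further 6 did not pass the test, and 3 were not tested. The members were chosen with earlier results of these data known, so these shares describe the list and do not test it. Past a log2 fold change of 1 as well, 11 members rose (28.2%, background 8.79%) and 3 fell (7.69%, background 5.14%). The median log2 fold change was 0.47 over the tested members and 0.01 over all tested genes. CPM values of the groups did not overlap in 25 members that were higher in shNeuroD1 and 10 that were lower, where the background was 38.4% and 37.7% of tested genes. Below, rose and fell are used only of members past the adjusted p threshold.

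**Figure D1:**
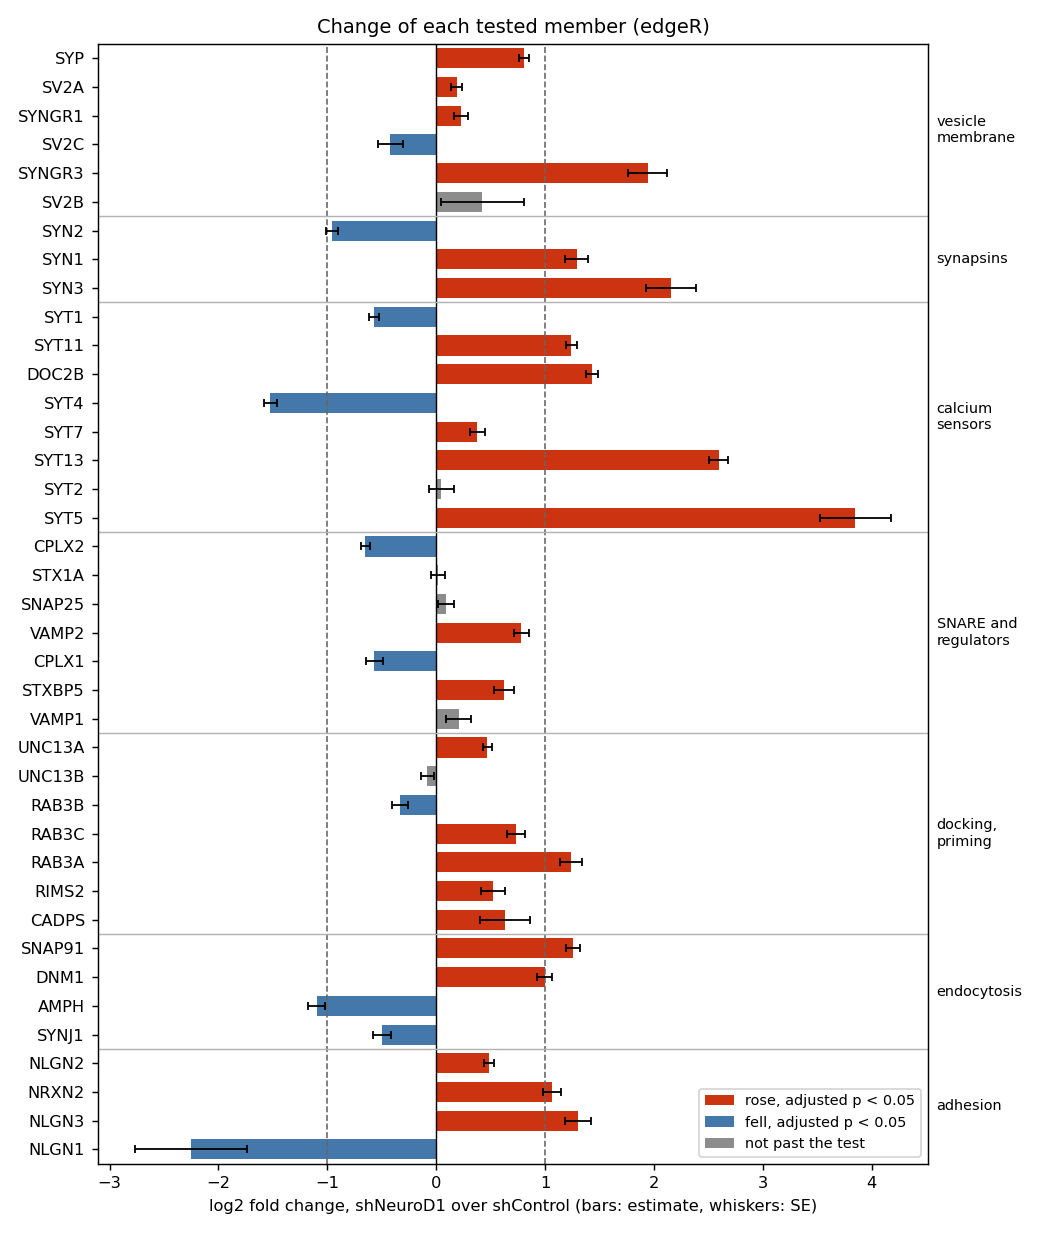
Log2 fold change of the 39 tested members (shNeuroD1 over shControl, edgeR), grouped by role and ordered by mean CPM within each role. Whiskers are standard errors, dashed lines mark log2 fold changes of -1 and 1, and colour gives the call at an adjusted p of 0.05. The bars of SYT5, SYT13, SYN3 and SYNGR3 reach furthest to the right and those of NLGN1 and SYT4 furthest to the left.

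Both rises and falls were found among the most highly counted members. The CPM of the 42 members summed to 2300 to 2339 in the shControl libraries and to 2607 to 2636 in the shNeuroD1 libraries. Of the member with the highest mean CPM in each of the 7 roles, SYP, UNC13A, SNAP91 and NLGN2 rose, and SYN2, SYT1 and CPLX2 fell. The synapsins summed to 120 to 125 CPM in shControl and 92.8 to 95.1 CPM in shNeuroD1 although 2 of the 3 genes rose. The SNARE proteins and their regulators summed to 539 to 549 CPM and 442 to 453 CPM. The calcium sensors summed to 698 to 712 CPM in shControl and 815 to 819 CPM in shNeuroD1, while SYT1 fell within them. That role groups all listed synaptotagmins with DOC2B, and some of them, such as SYT13, lack residues that bind calcium. No test was made of these sums. These sums weigh long transcripts more than short ones.

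**Figure D2:**
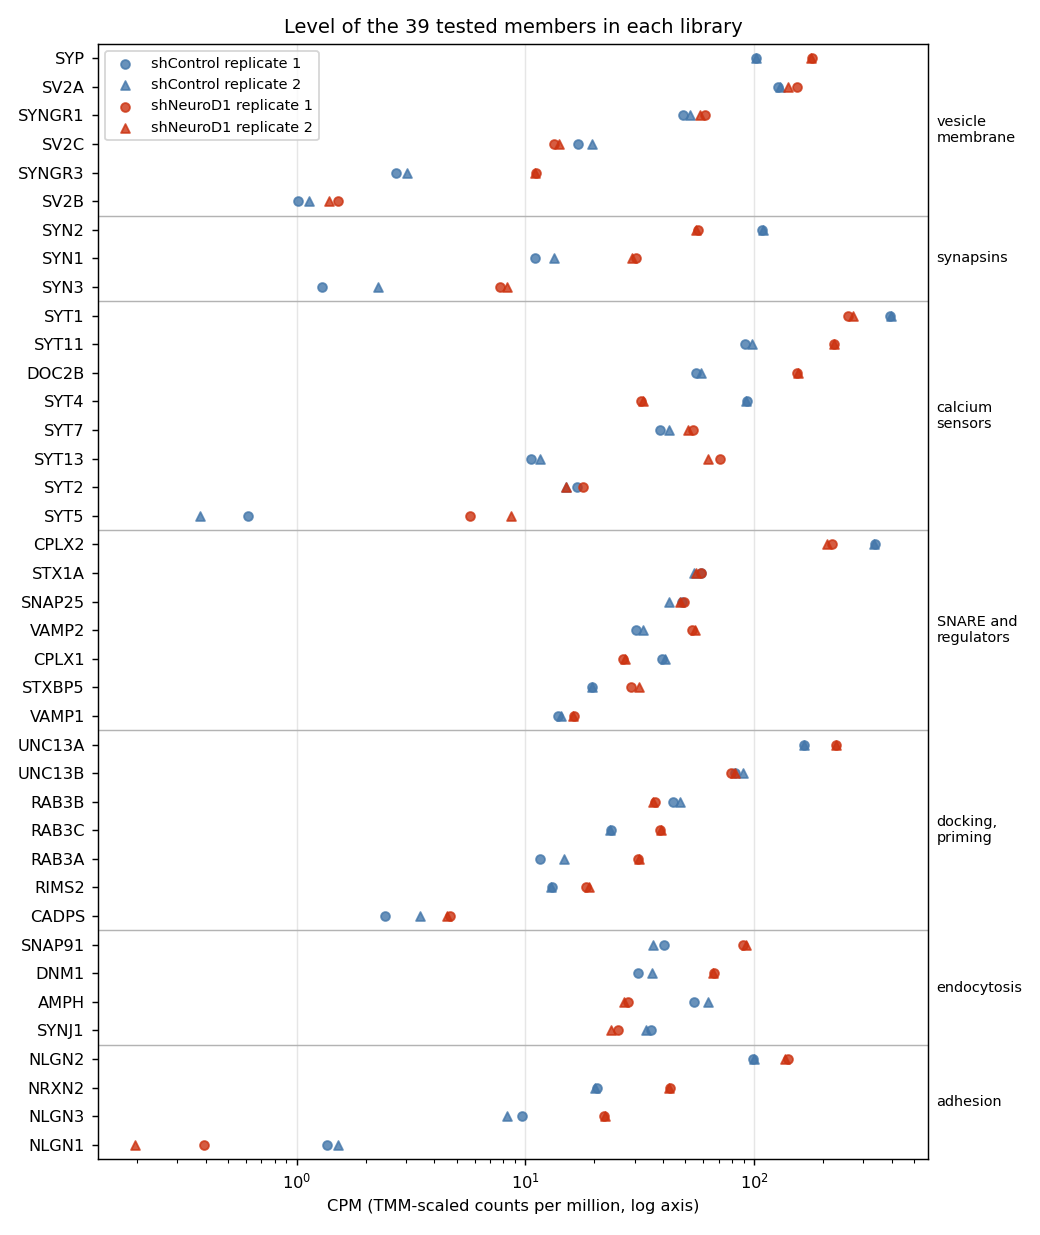
CPM of the 39 tested members in each library, on a log axis and grouped by role, with shControl in blue, shNeuroD1 in red, replicate 1 as circles and replicate 2 as triangles. Replicates lie close together for most members, with wider spacing at the low end (SYT5, NLGN1, SYN3, CADPS), and the red and blue points are interleaved or touching for SNAP25, STX1A, SYT2 and UNC13B.

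Among the 6 vesicle membrane proteins, 4 rose, 1 fell and 1 did not pass the test. SYP (ENSG00000102003, chrX:49187804-49200259), which encodes synaptophysin, an abundant tetraspan protein of the vesicle, had 102 and 102 CPM in the shControl libraries and 179 and 177 CPM in the shNeuroD1 libraries. The groups were far apart relative to their spread. Its log2 fold change was 0.81 (SE 0.05, adjusted p = 1.3e-15 by edgeR). SYNGR3 (ENSG00000127561, chr16:1989660-1994275) encodes synaptogyrin 3, a relative of synaptophysin. Its levels were 2.71 and 3.02 CPM in shControl and 11.2 and 11 CPM in shNeuroD1, with a log2 fold change of 1.94 (SE 0.18, adjusted p = 6.3e-11 by edgeR). SYNGR1, the other synaptogyrin in the list, rose by far less, with a log2 fold change of 0.23 (SE 0.06, adjusted p = 0.0033 by edgeR), and no longer passed without shControl replicate 1 (adjusted p = 0.088) or without shNeuroD1 replicate 1 (adjusted p = 0.069).

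The SV2 family of transporter-like glycoproteins split in direction. SV2A, the binding site of the antiepileptic drug levetiracetam, had 128 and 130.3 CPM in shControl and 154 and 141 CPM in shNeuroD1, a small rise with a log2 fold change of 0.19 (SE 0.05, adjusted p = 0.0018 by edgeR). That call was lost without shControl replicate 1 (adjusted p = 0.12), without shControl replicate 2 (0.09) and without shNeuroD1 replicate 1 (0.17), and was kept without shNeuroD1 replicate 2 (0.0021). SV2C had 17 and 19.6 CPM in shControl and 13.3 and 14 CPM in shNeuroD1 and fell by 0.42 on the log2 scale (SE 0.11, adjusted p = 0.0022 by edgeR), with an adjusted p of 0.087 without shControl replicate 2. SV2B was near the detection limit, with 15 and 18 counts against 23 and 21 counts, and did not pass the test.

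The 3 synapsins, phosphoproteins that tether vesicles to each other and to actin in the reserve pool, moved in opposite directions. SYN2 (ENSG00000157152, chr3:12004402-12191400) had 108 and 109.6 CPM in shControl and 56.8 and 55.4 CPM in shNeuroD1. It fell by 0.95 on the log2 scale (SE 0.06, adjusted p = 9.7e-16 by edgeR), to 51.6% of its shControl mean. SYN1 (ENSG00000008056, chrX:47571898-47619943) went the other way, from 11 and 13.4 CPM to 30.6 and 29.1 CPM, with a log2 fold change of 1.29 (SE 0.11, adjusted p = 3.5e-12 by edgeR). SYN1 shares 7.77% of its exon bases with ENSG00000283743 on the same strand, a gene counted 2, 0, 0 and 3 times. SYN3 (ENSG00000185666, chr22:32512552-33058372) was low in shControl, with 19 and 36 counts or 1.29 and 2.27 CPM. It reached 118 and 126 counts, or 7.76 and 8.27 CPM, in shNeuroD1, and its log2 fold change was 2.15 (SE 0.23, adjusted p = 1.3e-09 by edgeR). Per kilobase of annotated exon, SYN2 still stood above SYN1 in shNeuroD1, at 9.87 against 7.8 CPM per kb, where in shControl they were at 19.1 and 3.18 CPM per kb.

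The role called calcium sensors, which groups the synaptotagmins and DOC2B, held the largest rises of the members. Not all of its genes encode proteins that bind calcium, as given below for SYT13. Of 8 genes, 5 rose, 2 fell and 1 did not pass the test. SYT1 (ENSG00000067715, chr12:78863993-79452008), the sensor for fast synchronous release, was counted at 391 and 395 CPM in shControl and 258 and 270.1 CPM in shNeuroD1, and fell by 0.57 on the log2 scale (SE 0.04, adjusted p = 3.2e-13 by edgeR). SYT2, also a sensor for fast release, had 16.8 and 15.1 CPM against 17.9 and 15 CPM, and its groups overlapped. Of the exon bases of SYT2, 27.2% are shared with PPP1R12B on the opposite strand, and the strand setting of the counting is not given in the sources used here, so the SYT2 value is uncertain.

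SYT4 (ENSG00000132872, chr18:43267878-43277650) and SYT11 (ENSG00000132718, chr1:155859509-155885199) encode related synaptotagmins in which a calcium-binding residue of the first C2 domain is replaced. They changed in opposite directions. SYT4 had 93.5 and 92.3 CPM in shControl and 32.1 and 32.5 CPM in shNeuroD1, and fell by 1.52 on the log2 scale (SE 0.06, adjusted p = 1.2e-19 by edgeR). SYT11 had 91 and 97.7 CPM in shControl and reached 223 CPM in each shNeuroD1 library, with a log2 fold change of 1.24 (SE 0.05, adjusted p = 2.9e-20 by edgeR).

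SYT13 (ENSG00000019505, chr11:45240301-45286319) encodes an atypical synaptotagmin whose C2 domains lack the residues that bind calcium. Its levels were 10.6 and 11.5 CPM in shControl and 70.6 and 63.1 CPM in shNeuroD1. The shNeuroD1 mean was 6.05 times the shControl mean, and the log2 fold change of 2.59 (SE 0.09, adjusted p = 9.4e-22 by edgeR) was the 192nd largest rise of the 17537 tested genes. SYT5 (ENSG00000129990, chr19:55171199-55180441), a synaptotagmin of secretory vesicles, was close to absent in shControl, with 9 and 6 counts, and had 87 and 131 counts in shNeuroD1. In CPM these were 0.611 and 0.378 against 5.72 and 8.6. Its log2 fold change of 3.85 (SE 0.32, adjusted p = 7.6e-12 by edgeR) was the largest of the members, and it ran from 3.52 to 4.22 when each library was left out.

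DOC2B (ENSG00000272636, chr17:142789-181636) encodes a soluble protein with C2 domains that acts in spontaneous and asynchronous release. It had 55.6 and 58.6 CPM in shControl and 154 and 155 CPM in shNeuroD1, with no overlap and little spread, and a log2 fold change of 1.43 (SE 0.05, adjusted p = 8.5e-21 by edgeR). SYT7, a slow sensor with high affinity for calcium, changed less, from 38.9 and 42.3 CPM to 53.9 and 51.5 CPM (log2 fold change 0.38, SE 0.07, adjusted p = 2.6e-05 by edgeR).

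**Figure D3:**
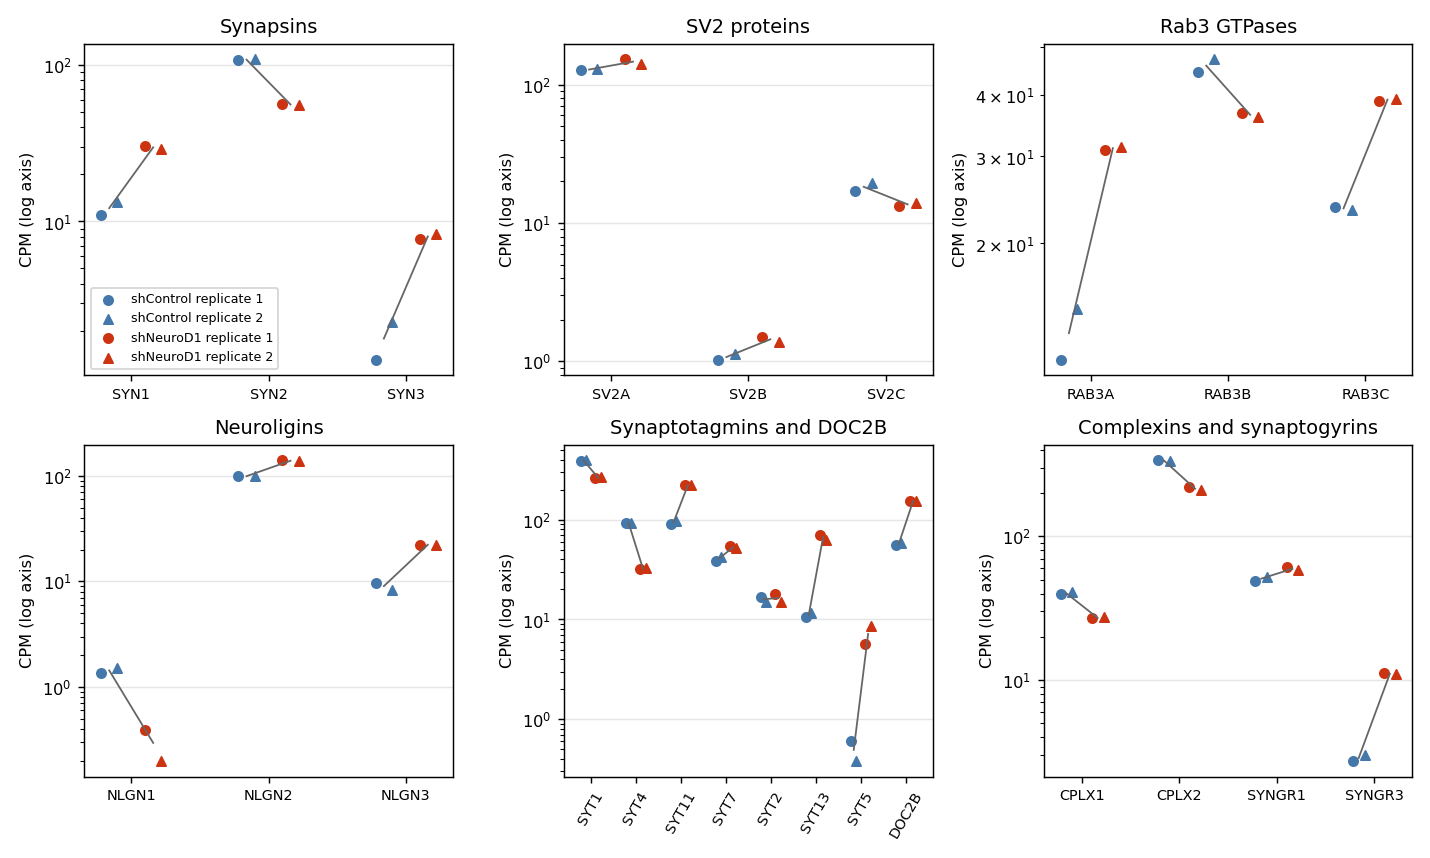
CPM of related members in each library on log axes, with shControl in blue, shNeuroD1 in red, replicate 1 as circles, replicate 2 as triangles, and grey lines joining the group means. Within the synapsins, the SV2 proteins, the Rab3 GTPases, the neuroligins and the synaptotagmins, at least 1 gene rose and at least 1 fell. Of the members alone, both complexins fell and both synaptogyrins rose.

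Of the 7 SNARE proteins and regulators, 2 rose, 2 fell and 3 did not pass the test. SNAP25 and STX1A, the SNARE proteins of the plasma membrane, had 48.6 and 42.5 CPM against 49.5 and 47.4 CPM, and 58.4 and 54.4 CPM against 58.4 and 55.9 CPM. Both sets overlapped, and neither passed the test, with log2 fold changes of 0.09 (SE 0.07) and 0.02 (SE 0.06). For STX1A, 17.9% of exon bases are shared with BUD23 on the opposite strand. VAMP2, the main SNARE protein of the vesicle, rose from 30.5 and 32.6 CPM to 53.4 and 55.1 CPM, with a log2 fold change of 0.78 (SE 0.07, adjusted p = 4.9e-11 by edgeR). VAMP1, its relative, had 13.9 and 14.2 CPM against 16.3 and 16.2 CPM and did not pass (adjusted p = 0.13 by edgeR). VAMP2 shares 13.2% of its exon bases with ENSG00000263620 on the same strand, a gene counted 8, 4, 7 and 13 times. VAMP1 shares 9.47% with TAPBPL on the opposite strand.

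The complexins, small proteins that clamp and activate assembled SNARE complexes, fell together. CPLX2 (ENSG00000145920, chr5:175796310-175884020) was the most highly counted gene of this role, at 339 and 335 CPM in shControl and 219.8 and 209 CPM in shNeuroD1, and fell by 0.65 on the log2 scale (SE 0.04, adjusted p = 2.5e-14 by edgeR). CPLX1 fell by 0.57 on the log2 scale (SE 0.08, adjusted p = 2.1e-07 by edgeR), from 39.5 and 40.7 CPM to 26.8 and 27.3 CPM. STXBP5 encodes tomosyn, which competes with VAMP proteins for the plasma membrane SNAREs, and it rose, with a log2 fold change of 0.62 (SE 0.09, adjusted p = 6.3e-07 by edgeR). No gene of this role passed a log2 fold change of 1 in either direction.

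In docking and priming, 5 of 7 tested genes rose, 1 fell and 1 did not pass the test. RAB3A (ENSG00000105649, chr19:18196784-18204074), the main Rab GTPase of synaptic vesicles, had 11.6 and 14.7 CPM in shControl and 31 and 31.4 CPM in shNeuroD1. Its log2 fold change was 1.24 (SE 0.10, adjusted p = 7.2e-12 by edgeR), and 9.08% of its exon bases are shared with MPV17L2 on the opposite strand, a gene counted 182, 158, 118 and 90 times in the same libraries. RAB3C, from 23.7 and 23.4 CPM to 38.9 and 39.3 CPM, also rose (log2 fold change 0.73, SE 0.08). RAB3B had 44.4 and 47.2 CPM in shControl and 36.7 and 36.1 CPM in shNeuroD1 and fell by 0.33 on the log2 scale (SE 0.07, adjusted p = 0.00022 by edgeR).

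UNC13A (ENSG00000130477, chr19:17601328-17688365) encodes Munc13-1, which opens syntaxin for SNARE assembly. It had 164 and 165 CPM in shControl and 229 and 228 CPM in shNeuroD1, with a log2 fold change of 0.47 (SE 0.04, adjusted p = 9.9e-11 by edgeR). Its paralog UNC13B had 82.1 and 89.4 CPM against 79.5 and 82.7 CPM, and the groups overlapped. RIMS2, a scaffold that binds Rab3 and calcium channels, rose from 13.1 and 12.9 CPM to 18.3 and 19 CPM (log2 fold change 0.52, SE 0.11, adjusted p = 0.0002 by edgeR). CADPS, a priming factor of dense core vesicles, was low, with 36 and 55 counts against 71 and 69, and its rise (log2 fold change 0.63, SE 0.23, adjusted p = 0.02 by edgeR) no longer passed without shControl replicate 1 (adjusted p = 0.16), without shNeuroD1 replicate 1 (adjusted p = 0.066) or in DESeq2 (adjusted p = 0.24). Their paralogs RIMS1 and CADPS2 had 0 counts in all 4 libraries, and a count of 0 allows up to 3 counts in a library.

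The 4 endocytic genes divided evenly. SNAP91 (ENSG00000065609, chr6:83552880-83709691) encodes the clathrin adaptor AP180, which sets the size of recycled vesicles. It had 40.4 and 36 CPM in shControl and 89.5 and 92.3 CPM in shNeuroD1, with a log2 fold change of 1.25 (SE 0.06, adjusted p = 3.4e-17 by edgeR). DNM1, the neuronal dynamin that cuts the vesicle neck, had 31.1 and 35.6 CPM against 67 and 66.3 CPM, and its log2 fold change of 1.00 (SE 0.07, adjusted p = 1e-13 by edgeR) lay just short of the fold threshold. AMPH (ENSG00000078053, chr7:38383704-38631567) encodes amphiphysin, which recruits dynamin. AMPH had 54.5 and 63.1 CPM in shControl and 28.1 and 26.9 CPM in shNeuroD1, and fell by 1.10 on the log2 scale (SE 0.08, adjusted p = 1.1e-13 by edgeR). SYNJ1, the phosphatase that helps to shed the clathrin coat, fell by 0.50 on the log2 scale (SE 0.08, adjusted p = 6.9e-06 by edgeR).

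The adhesion genes comprised 2 neurexins, which sit on the presynaptic side, and 3 neuroligins, their postsynaptic partners. NLGN3 (ENSG00000196338, chrX:71144831-71171201) rose from 9.7 and 8.31 CPM to 22.2 and 22.3 CPM, a log2 fold change of 1.30 (SE 0.12, adjusted p = 4.6e-11 by edgeR). NLGN2 (ENSG00000169992, chr17:7404874-7419860), the neuroligin of inhibitory synapses, was at 98.4 and 99.6 CPM in shControl and 140.4 and 137 CPM in shNeuroD1, with a log2 fold change of 0.48 (SE 0.05, adjusted p = 5.8e-10 by edgeR). NLGN1 (ENSG00000169760, chr3:173396284-174286644) went down at very low counts, with 20 and 24 in shControl and 6 and 3 in shNeuroD1. Its log2 fold change was -2.25 (SE 0.51, adjusted p = 0.00041 by edgeR). The ratio of its summed scaled counts was 0.206 with an exact 95% interval of 0.0883 to 0.427, which covers counting error only. NLGN1 passed the count filter (minimum count 10) only through shControl, where it was higher, so its test is a description and not separate support. NRXN2 (ENSG00000110076, chr11:64606174-64723188) rose from 20.6 and 20.1 CPM to 42.8 and 42.3 CPM, a log2 fold change of 1.07 (SE 0.08, adjusted p = 8.2e-13 by edgeR). NRXN3 was counted 0, 0, 0 and 1 times and was not tested.

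Levels of different genes were compared per length in 2 ways, as FPKM (fragments mapped, scaled for length and depth) summed over the transcript starts that the authors' tables list for each gene, and as CPM per kb of annotated exon. 35 of the 42 members had such a start, and 7 had none (SYN1, SYT7, SYNGR1, SV2B, NRXN3, RIMS1 and CADPS2). In 21 members (background 28% of 12500 genes) both shNeuroD1 libraries were above both shControl libraries in FPKM, in 9 (background 25.4%) below, and in 5 the groups overlapped. Of the 20 members with starts that rose in the counts, 19 were higher in FPKM without overlap, and of the 10 that fell, 9 were lower. The exceptions were DNM1, at 3.71 and 6.35 FPKM against 6.22 and 13.8 FPKM, and NLGN1, listed at or near 0.

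In shControl, the order of the members in FPKM was led by SYT1 with a mean of 57.8 FPKM (SD 0.32, n = 2), CPLX2 with 45.6 FPKM (SD 1.74, n = 2), SYP with 25.4 FPKM (SD 0.831, n = 2) and SYN2 with 19.5 FPKM (SD 0.754, n = 2), and the libraries of these neighbours did not overlap. In shNeuroD1, SYP with 40.6 FPKM (SD 11.6, n = 2), SYT1 with 36.9 FPKM (SD 5.22, n = 2), UNC13A with 33.6 FPKM (SD 8.24, n = 2), CPLX2 with 31.9 FPKM (SD 2.7, n = 2) and SYT11 with 30.7 FPKM (SD 0.568, n = 2) led, and neighbours in that order did not differ beyond their spread. The UNC13A sum holds starts far inside the gene, and the start at its annotated 5′ end was at 6.57 and 5.2 FPKM in shControl and 8.04 and 9.85 FPKM in shNeuroD1. SYN2 went from the 4th to the 15th place and SYT4 from the 6th to the 20th of the 35 members. SYT11 was at 10.9 and 9.98 FPKM in shControl and 30.3 and 31.1 FPKM in shNeuroD1, where SYT1 was at 40.6 and 33.3 FPKM, higher without overlap. The order in CPM per kb differed in part. It was led in shControl by SYT1 at 60.2 and 60.8, CPLX2 at 47.7 and 47.2, SV2A at 26.4 and 27.0, and SYT4 at 21.1 and 20.8 CPM per kb. In shNeuroD1 it was led by SYT11 at 42.6 CPM per kb in each library, followed by SYT1 at 39.8 and 41.6, SYP at a mean of 34.1, SV2A at 31.8 and 29.1, and CPLX2 at 31.0 and 29.4 CPM per kb. SYT11 thus stood above SYT1 without overlap on this scale, against the order in FPKM, SV2A and CPLX2 overlapped, and UNC13A came 8th at 20.4 and 20.3 CPM per kb.

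**Figure D4:**
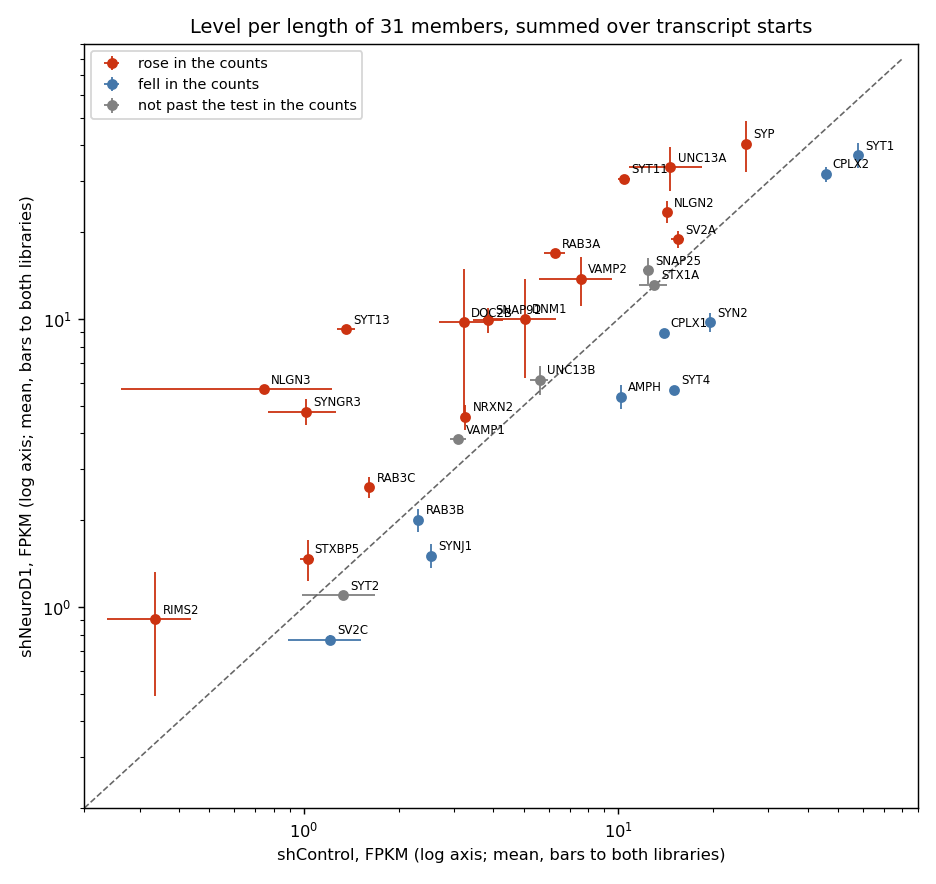
Mean FPKM per group of the 31 members above 0.2 FPKM in both groups, shControl on the horizontal and shNeuroD1 on the vertical log axis, with bars reaching to both libraries and the dashed line marking equal levels. Members that rose in the counts lie above the line and members that fell lie below it. SYT1 and CPLX2 sit at the top right, below the line, and DOC2B, UNC13A and SYP have long vertical bars.

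The same tables give separate starts within a gene. A start at 1 FPKM or more in both shNeuroD1 libraries and listed in neither shControl library was found for 3 of the 52 member starts that reached 1 FPKM in any library, against a background of 0.717% of 18398 starts, and the reverse pattern for 0 member starts (background 0.451%). This comparison was chosen after the values were seen, and with 2 libraries a group an exact permutation test cannot go below p = 0.333. NRXN2 held 1 of the 3. Neurexin genes have an upstream promoter for the long alpha form and a downstream promoter for the short beta form. The upstream NRXN2 start (chr11:64722971-64723188), at the annotated 5′ end of the gene on the reverse strand, was listed at 0 in both shControl libraries and at 1.09 and 1.79 FPKM in the shNeuroD1 libraries. The downstream start (chr11:64642539-64643315), which coincides with the start of the transcript NRXN2-202, went the other way, with 3.29 and 3.17 FPKM in shControl and 2.59 and 2.52 FPKM in shNeuroD1. The rise of NRXN2 in the counts was thus not seen at its downstream start.

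RAB3A and SYNGR3 held the other starts of this kind. RAB3A was assembled with a start at chr19:18203896-18204042, at 5.79 and 6.76 FPKM in shControl and 14.5 and 15.3 FPKM in shNeuroD1. A further start at chr19:18203456-18203786 was listed at 0 in both shControl libraries and at 2.18 and 1.79 FPKM in shNeuroD1. This start matches no annotated one and lies 226 bases from the nearest. The upstream start of SYNGR3 (chr16:1989970-1990201) was listed at 0 in shControl and at 3.19 and 2.28 FPKM in shNeuroD1, although SYNGR3 had 40 and 48 counts in shControl. A start listed at 0 therefore does not show that the gene was silent. CPLX2 used the same 2 main starts in every library, the annotated 5′ end at 13.4, 16.5, 9.96 and 14.7 FPKM and a downstream start at 26.8, 27.4, 18.9 and 17.8 FPKM, and the groups separated only at the downstream start.

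Alternative splicing was read from the FPKM of transcripts that include or skip an exon. Among exons with at least 2 FPKM of both kinds together in every library, 19 were listed for 10 of the members. That of VAMP2 (chr17:8150219-8150317) lies outside the annotated gene. Inclusion was apart by 20 percentage points or more without overlap in 3 of the 19, against a background of 6.19% of 8141 exons. This comparison too was chosen after the values were seen and has no test. An exon of SNAP91 (chr6:83592455-83592538, 84 bases, reverse strand, within the coding sequence of annotated transcripts) was included in 61.2% and 16.8% of shControl FPKM and in 90.5% and 92.3% of shNeuroD1 FPKM. A second SNAP91 exon (chr6:83556143-83556245, 103 bases) was at 61.2% and 16.8% against 72.9% and 81.8%. The shControl libraries stood far apart from each other at both exons, and the equal percentages there come from the same assembled transcripts. In AMPH, an exon of 126 bases (chr7:38417825-38417950, reverse strand) was included in 33% and 37.7% of shControl FPKM. Its inclusion was listed at 0 in both shNeuroD1 libraries. The same bases lie within a listed AMPH start (chr7:38417825-38418031). That start was at 0.0558 and 0.0475 FPKM in shControl and 0 and 1.28 FPKM in shNeuroD1. The inclusion of 0 therefore does not show that these bases were absent from shNeuroD1 RNA. The inclusion of NLGN2's exon of 51 bases, at 98.9%, 98.9%, 98% and 93.8%, is an example of an exon that stayed near full inclusion.

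**Figure D5:**
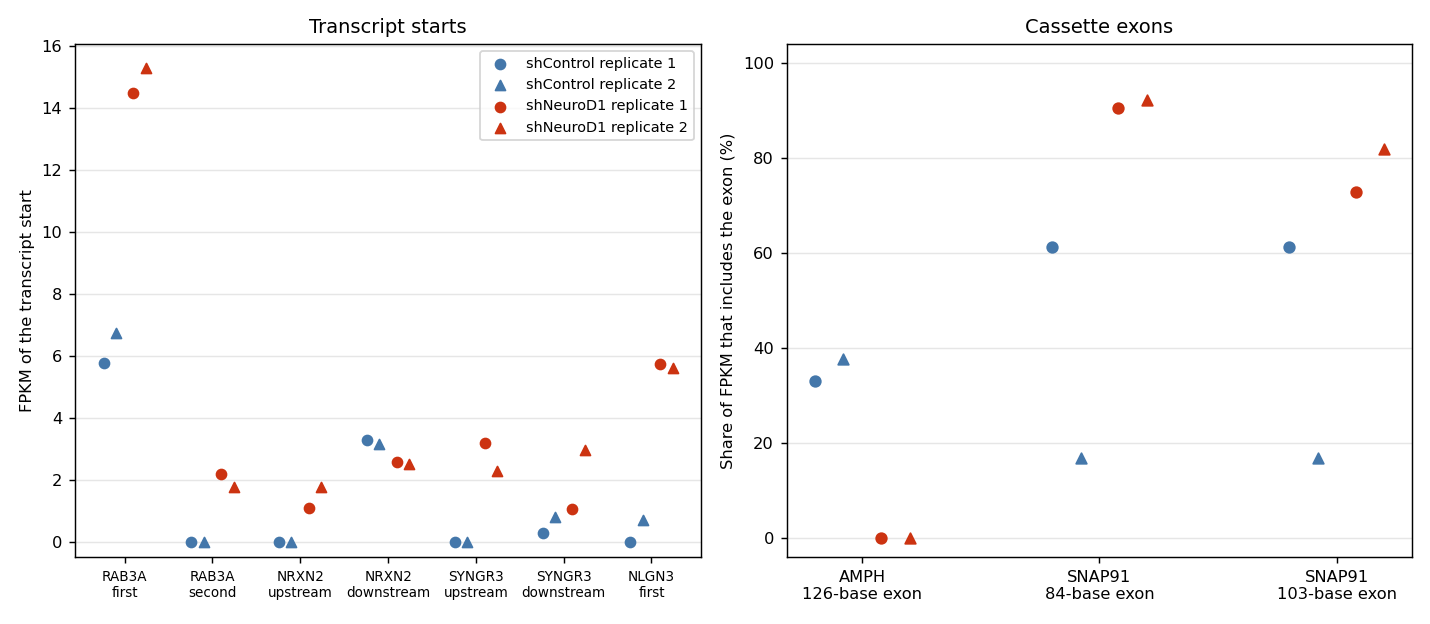
The left panel gives the FPKM of named transcript starts in each library and the right panel the share of FPKM (%) that includes each of the 3 cassette exons. Blue marks shControl and red shNeuroD1, with replicate 1 as circles and replicate 2 as triangles. The upstream NRXN2 and SYNGR3 starts and the second RAB3A start are at 0 in both shControl libraries. Inclusion of the AMPH exon as a cassette exon is at 0 in both shNeuroD1 libraries.

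NeuroD1 binds E-boxes, short motifs of the form CANNTG, and RefSeq promoter windows (250 bases before to 50 after a start, GRCh38.p14) were found for 32 of the 42 members, in 51 windows. CANNTG occurred in 62.7% of the member windows and in 68.7% of all 35116 windows, on either strand. CAGATG, a form that NeuroD1 is known to bind, occurred in 19.6% and 14.7%, and CAGCTG in 15.7% and 17.9%. Both are counted within CANNTG. A match is a description of the letters and not a bound site. For the members past both thresholds, the 26 bases around each whole match are given because they show where the motif lies beside the changes above. Capitals mark the motif, the line is read 5′ to 3′ on the strand that spells it, and for CAGCTG on the gene's own strand.
SYT5, CAGATG, chr19:55180395-55180420, forward strand, log2 fold change 3.85: atgacgcccaCAGATGtttatcctgg
SYN1, CAGATG, chrX:47619879-47619904, forward strand, log2 fold change 1.29: cgccgcagcgCAGATGgtcgcgcccg
RAB3A, CAGATG, chr19:18204129-18204154, forward strand, log2 fold change 1.24: cacgcagagcCAGATGgggcagggct
SNAP91, CAGATG, chr6:83709587-83709612, forward strand, log2 fold change 1.25: ctccgaggccCAGATGagcagggcga
SNAP91, CAGCTG, chr6:83709114-83709139, reverse strand, log2 fold change 1.25: ggaggagccaCAGCTGaggtgggggc
SYT11, CAGCTG, chr1:155859590-155859615, forward strand, log2 fold change 1.24: gagctgagcgCAGCTGacaactaggg
NLGN1, CAGATG, chr3:173397570-173397595, forward strand, log2 fold change -2.25: gtcttcggagCAGATGcatcttcttt
The windows of SYT4 and AMPH, the other members past both thresholds on the lower side, held neither form, nor did that of NLGN3, and SYT13, SYN3, SYNGR3, DOC2B and NRXN2 had no window in the table. SYN1 also held CAGCTG at the end of its window (chrX:47619808-47619823), where fewer than 26 bases were available. Matches also lay in windows of NLGN2, SV2A, SYNGR1 and STXBP5, which rose by less, of UNC13B and VAMP1, which did not pass the test, and of NRXN3 and RIMS1, which were not tested.

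A further list held 101 presynaptic genes. It too was written with earlier results of these data known, so its shares are a description. Of 87 tested, 36 rose (41.4%, background 26.8%) and 25 fell (28.7%, background 28.2%). Past both thresholds, 9 rose (10.3%, background 8.79%) and 4 fell (4.6%, background 5.14%), and the median log2 fold change was 0.10. By mean CPM of at least 10, the largest rises were in RIMBP2, a scaffold that links RIM proteins to calcium channels (68.9 and 65.1 CPM against 185 and 183 CPM, log2 fold change 1.46, SE 0.05), CASK, a presynaptic scaffold kinase that binds neurexins (log2 fold change 1.15, SE 0.05), and BIN1, the relative of AMPH also known as amphiphysin 2 (43.5 and 45.5 CPM against 96.8 and 94.1 CPM, log2 fold change 1.10, SE 0.06). BIN1 and AMPH therefore changed in opposite directions. The synaptogyrins of this list differed too. SYNGR2 rose (log2 fold change 0.79, SE 0.08), and SYNGR4, at a mean of 9.56 CPM, fell (log2 fold change -2.41, SE 0.16). The falls of that size were in STX3, a syntaxin of apical and sensory release (28.6 and 29.2 CPM against 7.56 and 9.06 CPM, log2 fold change -1.80, SE 0.11), and LIN7A, a scaffold that partners CASK (78.5 and 71.9 CPM against 27 and 29.2 CPM, log2 fold change -1.42, SE 0.07).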

How the data were processed

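RNAseq was performed on poly(A) RNA from IMR-32 cells, with 2 shControl and 2 shNeuroD1 libraries grouped by sample title. The authors deposited raw read counts per Ensembl gene. The submitters' processing notes name cutadapt 1.9.1, HISAT2 2.0.1, HTSeq 0.6.1, DESeq2 and hg38, and the strand setting is not given in the sources used here. The authors also deposited FPKM values of transcript starts, ends and splicing events per library. Events at 0 are left out of these tables, whose tool is not given in the sources used here.

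Symbols were found for 60588 of 60612 gene IDs, and coordinates are those of GENCODE 29. Counts were kept by filterByExpr (minimum count 10), scaled by TMM and compared with edgeR 4.0.16 (glmQLFit and glmQLFTest, two-sided, R 4.3.3), with Benjamini-Hochberg adjustment. The SE is the size of the log2 fold change divided by the square root of F. The test was checked on simulated data in which far fewer genes changed than were called here. That check therefore does not show how the test behaves in these data. Totals of 14665210 to 16482463 counts per library leave genes under about 10 counts untested. Unlisted FPKM events were taken as 0. Starts were summed where they lay within 1000 bases of the gene, except in the limma fits, which summed every start listed for the gene ID. Exon inclusion was the including FPKM over the including and skipping FPKM.

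Replicates were not duplicates (chi-square per degree of freedom 2.53 and 1.56). The members, roles and lists were chosen with earlier results of these data known. Values per library and full statistics were given for members past both thresholds and for the member with the highest mean CPM in each role, and related members that differed in direction were set side by side. From the 101 other presynaptic genes, up to 3 rises and 3 falls past both thresholds with a mean of at least 10 CPM were named. SYNGR2 and SYNGR4 were named as relatives of listed members. Other members are named to account for all 42. Some single marker genes are not reported here. Alternatives were DESeq2 1.42.0 size factors, library size alone, no filter, a mean of at least 1 CPM, DESeq2's Wald test, glmTreat, the replicate number as a block, limma 3.58.1 on log2(FPKM + 1) and log2(FPKM + 0.1), and leaving out each library.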

Additional observations from a re-analysis of the deposited data

How the results depend on the processing

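Across DESeq2 size factors, no filter on low counts and the DESeq2 Wald test, the counts of members called and their median stayed close to the values reported, apart from 16 other presynaptic genes lower in DESeq2 where edgeR gave 25. The shares of all genes called higher and lower, 26.8% and 28.2% as reported, were 26.7% and 28.4% with DESeq2 size factors. They were 11.6% and 13.4% with no filter and 8.46% and 11% in DESeq2, each over 32576 genes. Library size alone moved the median of all genes by 0.11 and that of the members to 0.58. It moved the share of all calls that were higher from 48.7% to 62.7%. There, 25 members were higher and 10 lower, against 34.9% and 20.8% of all genes. A mean of at least 1 CPM, which left NLGN1 untested, gave a member median of 0.49. There, 23 members were higher and 9 lower, against 28.4% and 29.5% of all genes. Against a log2 fold change of 1, glmTreat called 9 members higher and 1 lower, where 3.28% and 2.55% of all genes were called. Limma on log2(FPKM + 1), with 29 members and 10084 genes tested, gave a member median of 0.28 with 5 members higher and 2 lower, 5 and 1 past both thresholds, and 5 and 1 of the other presynaptic genes, against 2.44% and 2.76% of all genes. On log2(FPKM + 0.1) it called 4 members higher and 2 lower, 4 higher past both thresholds, and 3 and 1 of the other presynaptic genes, against 2.04% and 2.55% of all genes, and the cause was not tested. Leaving out each library gave a member median of 0.41 to 0.49. With 2 libraries against 1, the lone library is assumed to vary like the other group. In every count-based alternative that tested them, glmTreat aside, 20 of the 23 rises and 9 of the 10 falls kept their call, the exceptions being CADPS, SV2A and SYNGR1, and SV2C, which DESeq2 gave adjusted p values of 0.24, 0.052, 0.11 and 0.064. AMPH and DNM1 crossed the fold threshold, with AMPH at -0.99 under library size alone and without shControl replicate 2, and DNM1 at 1.11 and 1.10 there. Signs turned only in members that did not pass the test. UNC13B was at 0.031 under library size alone and at 0.10 and 0.12 in the FPKM fits, SYT2 at -0.14 and -0.22 in the FPKM fits, and leaving out a library gave -0.0036 to 0.19 for SNAP25, -0.032 to 0.070 for STX1A and -0.091 to 0.17 for SYT2.

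Same-numbered libraries were not paired, since their deviations from the group means correlated at 0.0158. With the replicate number as a block, 23 members were higher and 10 lower, against 27.1% and 28.5% of all genes. Past both thresholds were 11 and 3, the median was 0.47, and no call of a member changed.

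With 2 libraries a group, exact tests of single values cannot go below p = 0.333, so the FPKM, start and exon values stand as descriptions. Members under about 2 CPM (SYT5 and SYN3 in shControl, SV2B and NLGN1) rest on few counts.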
